A study of Homo sapiens with 6 samples.

Results

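The 52 genes described here encode the proteins that copy DNA and supply its nucleotides. They were chosen by name and not by a threshold on any measured value, although results of these data were known, and cover 7 roles: origin licensing (8 genes), the replicative helicase and its activation (14), polymerases and primase (9), the clamp, its loader and Okazaki fragment joining (8), single-strand DNA binding (3), nucleotide synthesis (5), and fork protection with the replication checkpoint (5). All 52 were found by symbol among the 58676 gene identifiers of the count table, and all 52 were among the 19072 genes with enough counts to be tested. Of the 52 genes, 24 were downregulated and 0 were upregulated in fibroblasts exposed to medium from RAS-activated epithelial cells. Of all 19072 genes tested, 2.76% were downregulated and 2.95% were upregulated.

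The data are RNA-Seq read counts from 6 libraries of MRC5 cells, an established line of human fetal lung fibroblasts. Each culture spent 24 h in conditioned medium (CM) from ATII cells. Here these are an engineered human alveolar type II epithelial line, ATII^ER:KRASV12, that turns on RAS signaling when given 4-hydroxytamoxifen (4-OHT). In 3 libraries the CM came from control ATII cells (control ATII CM), and in 3 it came from ATII cells given 4-OHT (4-OHT ATII CM). Both media thus came from 1 epithelial line, grown in DCCM-1 with newborn calf serum, and both groups used 1 fibroblast line. Secreted factors and 4-OHT carried over in the CM cannot be told apart in this design. The labels do not say whether the 3 libraries of a group came from separate cultures or separate batches of CM, so p values measure the spread between these libraries.

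Before a cell enters S phase, the origin recognition complex (ORC), CDC6 and CDT1 load rings of MCM2 to MCM7 on DNA, and the kinase CDC7 with DBF4, MCM10, CDC45 and the GINS complex turn those rings into moving helicases. At the fork, polymerase alpha with primase starts each strand, polymerases epsilon and delta extend them on the sliding clamp PCNA, and ribonucleotide reductase, thymidylate synthase and thymidine kinase supply the deoxynucleotides. Many of these genes are transcribed periodically, mostly around the G1/S boundary under E2F factors, so their transcripts are used as a sign of cycling cells. Bulk RNA cannot tell fewer cells in S phase from less RNA of these genes per cell.

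Promoter sequences were taken from the RefSeq set on GRCh38.p14, which matched 46 of the 52 genes over 250 bases before to 50 bases after the start. MCM4, MCM5, GINS4, POLD3, RPA2 and RPA3 had no entry. The 8 windows below run from 100 bases before to 20 bases after the start of each gene, 5' to 3' on the gene's strand, and are shown because they belong to the genes with the largest changes (POLE2 and DTL) or the smallest p (RRM2), to factors that load or form the MCM ring (CDC6, MCM2, MCM6 and MCM7) and to PCNA as a gene that was not called. Capitals mark any of 4 E2F motifs, TTTGGCGC, TTTCCCGC, TTTGCCGC and TTTCGCGC, on either strand.
CDC6: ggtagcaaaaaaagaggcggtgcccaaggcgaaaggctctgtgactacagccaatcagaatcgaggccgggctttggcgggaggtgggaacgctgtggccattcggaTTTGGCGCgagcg
MCM2: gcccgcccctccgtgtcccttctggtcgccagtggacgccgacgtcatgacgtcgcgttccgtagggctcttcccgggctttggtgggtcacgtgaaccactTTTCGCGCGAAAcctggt
MCM6: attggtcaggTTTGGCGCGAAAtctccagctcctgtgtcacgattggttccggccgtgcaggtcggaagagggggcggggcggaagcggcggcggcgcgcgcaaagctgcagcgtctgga
MCM7: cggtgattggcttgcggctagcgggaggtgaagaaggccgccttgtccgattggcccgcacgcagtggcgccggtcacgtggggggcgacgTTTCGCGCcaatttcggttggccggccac
POLE2: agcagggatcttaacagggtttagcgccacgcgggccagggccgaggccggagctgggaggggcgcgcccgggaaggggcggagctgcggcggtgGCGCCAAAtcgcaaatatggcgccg
DTL: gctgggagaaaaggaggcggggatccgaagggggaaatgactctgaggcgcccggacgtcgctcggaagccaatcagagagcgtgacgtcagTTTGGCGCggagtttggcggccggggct
PCNA: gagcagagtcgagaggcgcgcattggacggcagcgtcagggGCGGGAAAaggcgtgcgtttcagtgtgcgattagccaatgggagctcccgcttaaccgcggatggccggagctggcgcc
RRM2: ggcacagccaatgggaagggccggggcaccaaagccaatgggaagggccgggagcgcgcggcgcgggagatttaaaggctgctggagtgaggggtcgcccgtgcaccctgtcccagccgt

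These windows lie at chr17:40287779-40287898 for CDC6 and chr3:127598311-127598430 for MCM2, both on the plus strand. MCM6 (chr2:135876424-135876543), MCM7 (chr7:100101378-100101497), POLE2 (chr14:49688195-49688314) and PCNA (chr20:5126603-5126722) are on the minus strand, and DTL (chr1:212035648-212035767) and RRM2 (chr2:10122639-10122758) are on the plus strand. In MCM2 and MCM6 the capitals cover a TTTCGCGC or TTTGGCGC on one strand that overlaps a TTTCGCGC on the other. RRM2 has none of the 4 motifs in this window, which lies inside the gene's span in the count table (chr2:10120698-10131419). Only 1 start per gene was searched. Loading and ring genes whose windows are not shown include ORC1, ORC2, ORC5 and ORC6, with no motif in the full promoter. They also include CDT1 and MCM3, each with a motif. The 8 windows thus do not stand for the share of members with a motif. Over the full promoters, 20 of 46 members (43.5%) held an E2F motif, against 3.32% of all 27326 promoters in the set and 5.05% of the 12346 promoters of tested genes. By role, 7 of 11 helicase promoters held one (63.6%), 4 of 8 polymerase promoters (50.0%), 3 of 8 licensing promoters (37.5%) and 1 of 5 nucleotide synthesis promoters. The motif was present in 12 of 22 promoters of downregulated members (54.5%) and in 8 of 24 promoters of the others (33.3%), a difference that was not tested. CCAAT, on either strand, was in 56.5% of member promoters, 35.7% of all promoters and 35.6% of those of tested genes, and the CHR motif TTTGAA or TTCGAA in 6.52%, 16.6% and 11.6%. These matches describe letters in a window and not bound sites.

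CPM below are counts divided by TMM-adjusted library size, so that libraries of unequal depth can be compared, and changes are log2 fold changes of 4-OHT ATII CM against control ATII CM with their SE. A gene was called when edgeR's quasi-likelihood test, adjusted by Benjamini-Hochberg over all 19072 genes, gave a value under 0.05. Gene positions are those of the count table on GRCh38. By this rule 24 of the 52 genes fell (46.2%), while 2.76% of all genes tested fell and 2.95% rose. Of the 52 genes, 48 had a log2 fold change below 0, and the 4 above 0 (ORC5, PRIM1, PRIM2 and POLD3, of which ORC5 was below 0 with RLE size factors or library totals) had unadjusted p values of 0.451 or more. DESeq2 and limma-voom also called 0 members higher, and 22 and 25 lower. The groups did not overlap for 35 genes, all lower in 4-OHT ATII CM, against 10.4% of all genes tested lower and 11.7% higher. The median log2 fold change was -0.27 over the 52 genes and -0.002 over all genes tested. The changes were small. Among called genes MCM3 changed least, by -14.2%, and POLE2 most, by -42.4%, and only POLE2 and DTL passed 1.5-fold. Without 4-OHT replicate 2 the number of called genes was 11, when 1.32% of the genes tested were called lower.

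**Figure D1:**
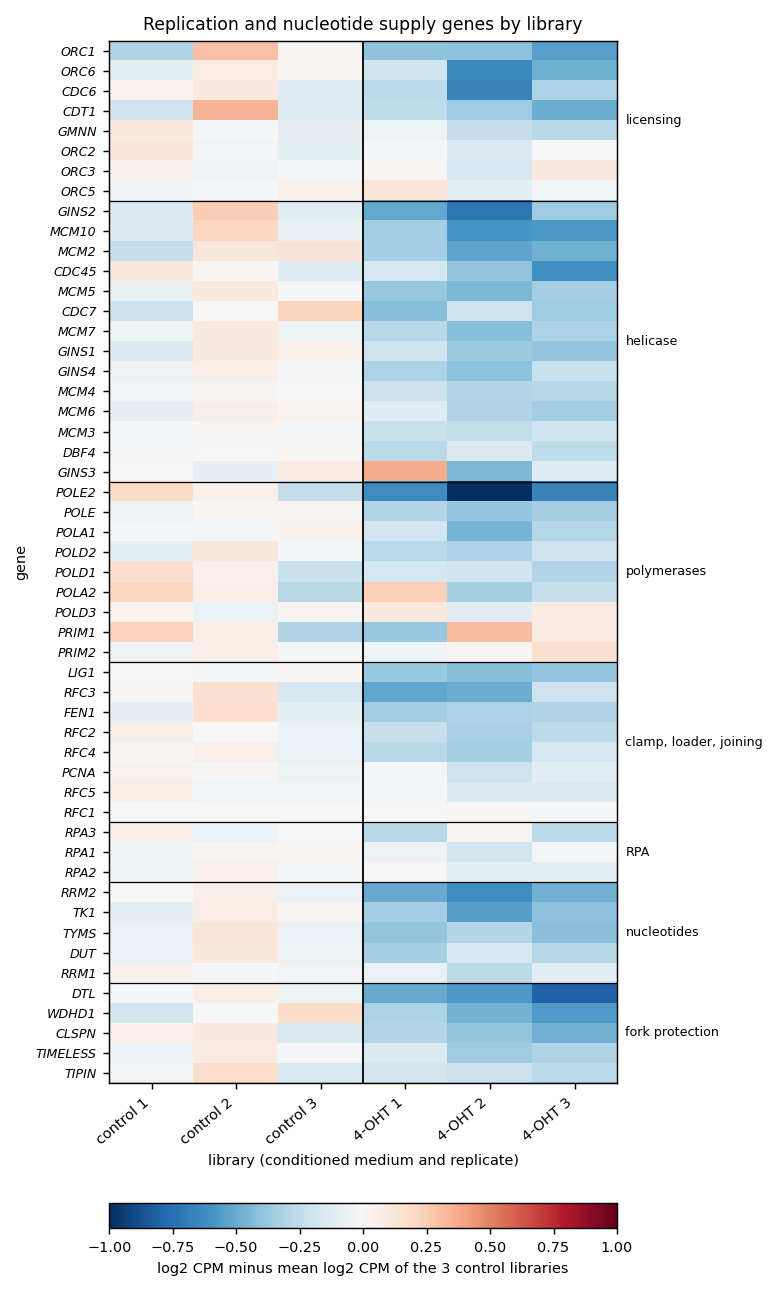
Level of each of the 52 genes (rows, grouped by role) in each of the 6 libraries (columns), as log2 CPM minus the mean log2 CPM of the 3 control libraries, with blue for lower and red for higher. Most rows are blue in all 3 libraries of 4-OHT ATII CM, and the palest rows are ORC2, ORC3, ORC5, PRIM2, POLD3, RFC1, RPA1 and RPA2.

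Summed over the 52 genes, the level was 1114, 1179 and 1113 CPM in control replicates 1 to 3 and 994.9, 924.6 and 968.2 CPM in 4-OHT replicates 1 to 3. All 3 libraries of 4-OHT ATII CM were below all 3 controls, and the mean changed by -15.2%, from 1135 ± 37.8 to 962.6 ± 35.5 CPM (SD, n = 3). Control replicate 2 had the highest sum, the fewest counts (17691849, against 21324556 to 26389449 in the others) and the largest differences from its replicates over all genes, where chi-square divided by its degrees of freedom was 4.87 and 5.56, against 2.04 between the other 2 controls. Without it, 19 members were called, when 4.46% of the genes tested were called lower. Counts of 10 fibroblast markers summed to 41480 to 44440 CPM (on library totals) in control ATII CM and 43160 to 44350 CPM in 4-OHT ATII CM, with none at 0. Of the 10, 4 rose (DCN, LUM, COL3A1 and PDGFRA) while VIM fell, the last in 9 of the 15 alternatives. VIM was not called with a replicate block, with no filter on low counts, or without control replicate 3 or any one of the 4-OHT libraries. The 11 lung epithelial markers summed to 176 to 202 counts per control library and 183 to 207 per 4-OHT library, of which 139 to 180 were from a single gene, with 5 to 8 of them at 0 in a library and ESRP1, KRT5, SFTPA1 and NKX2-1 at 0 in all. Endothelial markers (3 genes) summed to 5 to 12 counts. The 3 leukocyte markers summed to 13 to 19 counts in the controls and 23 to 49 in 4-OHT ATII CM, nearly all from CD14, and their part in the result was not tested.

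**Figure D2:**
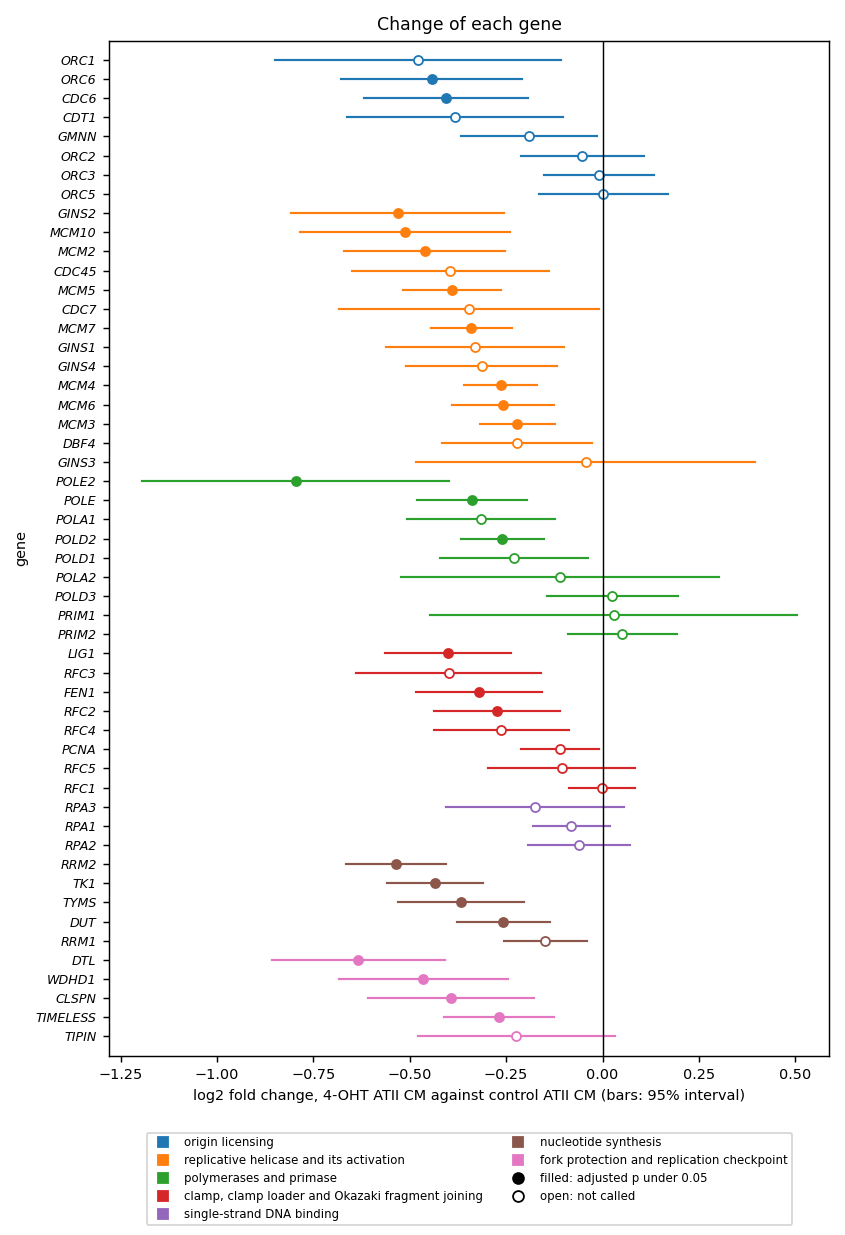
Log2 fold change of each gene, 4-OHT ATII CM against control ATII CM, with its 95% interval as a bar, coloured by role and filled where the adjusted p was under 0.05. The 24 filled points lie between -0.80 and -0.22. The intervals of ORC2, ORC3, ORC5, GINS3, POLA2, PRIM1, PRIM2, POLD3, RFC1, RFC5, RPA1, RPA2, RPA3 and TIPIN include 0.

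Of the 8 origin licensing genes, 2 fell and the median log2 fold change was -0.29. ORC6 (chr16:46689643-46698394), the smallest ORC subunit, was at 10.1, 11.3 and 10.8 CPM in control replicates 1 to 3 and at 9.32, 6.82 and 7.61 CPM in 4-OHT replicates 1 to 3. All 3 libraries of 4-OHT ATII CM were below all 3 controls, and the gene fell (log2 fold change -0.44 ± 0.11, SE, adjusted p = 0.0264). CDC6 (chr17:40287633-40304657), the ATPase that helps ORC load the MCM ring, was at 17.6, 18.4 and 15.7 CPM in control replicates 1 to 3 and at 14.3, 10.8 and 13.9 CPM in 4-OHT replicates 1 to 3. Its lowest control was also above the highest 4-OHT library (log2 fold change -0.41 ± 0.10, SE, adjusted p = 0.0248). These calls depended on single libraries. ORC6 was not called without control replicate 3, 4-OHT replicate 2 or 4-OHT replicate 3 (adjusted p = 0.0858, 0.131 and 0.105) or after thinning to the smallest library (adjusted p = 0.0563). CDC6 was not called without control replicate 1 or 4-OHT replicate 2 (adjusted p = 0.0853 and 0.113). Over the 15 alternatives the log2 fold change was -0.56 to -0.35 for ORC6 and -0.48 to -0.29 for CDC6. Neither ORC1, which brings the complex to chromatin and is itself cell cycle regulated, nor CDT1, the other loading factor, was called, although the groups did not overlap. ORC1 had a log2 fold change of -0.48 ± 0.17 (SE, adjusted p = 0.144) at a control level of 3.65 ± 0.76 CPM (SD, n = 3), and CDT1 one of -0.38 ± 0.13 (SE, adjusted p = 0.116). GMNN, the inhibitor of CDT1, had a log2 fold change of -0.19 ± 0.083 (SE, adjusted p = 0.241). The other ORC subunits among the 52 genes were near 0, at -0.052 ± 0.075 (SE) for ORC2, -0.0086 ± 0.067 for ORC3 and 0.0013 ± 0.079 for ORC5 on the log2 scale. ORC4, which is not among the 52 and was picked after its values were seen, had groups that did not overlap, higher in 4-OHT ATII CM, and was not called at 0.11 ± 0.060 (SE, adjusted p = 0.372).

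All 14 helicase genes had log2 fold changes below 0, with a median of -0.34, and 8 of them fell. The 6 subunits of the MCM ring all fell. MCM7 (chr7:100092728-100101940) was at 83.3, 91.9 and 82.9 CPM in control replicates 1 to 3 and at 70.8, 64.04 and 68.8 CPM in 4-OHT replicates 1 to 3. The groups were well apart, and MCM7 fell (log2 fold change -0.34 ± 0.049, SE, adjusted p = 0.000529). MCM5 (chr22:35400063-35425430) was at 30.6, 34.6 and 31.8 CPM in control replicates 1 to 3 and at 24.8, 23.5 and 25.5 CPM in 4-OHT replicates 1 to 3 (log2 fold change -0.39 ± 0.060, SE, adjusted p = 0.000913). MCM4 (chr8:47960185-47978160) was at 44.7, 46.6 and 45.8 CPM in control replicates 1 to 3 and at 39.4, 37.3 and 37.5 CPM in 4-OHT replicates 1 to 3 (log2 fold change -0.26 ± 0.045, SE, adjusted p = 0.00202). For both genes the highest 4-OHT library was below the lowest control, and MCM4, MCM5 and MCM7 were called in all 15 alternatives that were tried.

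MCM2 (chr3:127598223-127622436), at one side of the gate through which DNA enters the ring, was at 13.3, 17.02 and 17.2 CPM in control replicates 1 to 3 and at 12.4, 10.9 and 11.2 CPM in 4-OHT replicates 1 to 3. Control replicate 1 was the lowest of the controls and still above all 4-OHT libraries (log2 fold change -0.46 ± 0.10, SE, adjusted p = 0.0100). MCM3 (chr6:52264009-52284881) was at 38.9, 40.03 and 38.7 CPM in control replicates 1 to 3 and at 33.6, 33.1 and 34.1 CPM in 4-OHT replicates 1 to 3, the narrowest spread of the ring (log2 fold change -0.22 ± 0.046, SE, adjusted p = 0.00844). MCM6 (chr2:135839626-135876426) was at 35.2, 38.9 and 38.3 CPM in control replicates 1 to 3 and at 34.4, 30.3 and 29.4 CPM in 4-OHT replicates 1 to 3. In MCM6, 4-OHT replicate 1 came close to the lowest control without reaching it (log2 fold change -0.26 ± 0.062, SE, adjusted p = 0.0216). Without 4-OHT replicate 2 the adjusted p was 0.0651 for MCM2, 0.0508 for MCM3 and 0.109 for MCM6, and without control replicate 3 it was 0.0624 for MCM2 and 0.0894 for MCM6. MCM6 was also not called without 4-OHT replicate 3 (adjusted p = 0.128).

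Among the factors that turn the loaded ring into a helicase, MCM10 and GINS2 fell. MCM10 (chr10:13161554-13211104), which helps the assembled helicase to start, was at 6.23, 8.01 and 6.53 CPM in control replicates 1 to 3 and at 5.39, 4.53 and 4.60 CPM in 4-OHT replicates 1 to 3 (log2 fold change -0.51 ± 0.13, SE, adjusted p = 0.0267). GINS2 (chr16:85676198-85690073), a subunit of the GINS complex that joins MCM and CDC45, was at 7.50, 9.80 and 7.68 CPM in control replicates 1 to 3 and at 5.76, 4.97 and 6.43 CPM in 4-OHT replicates 1 to 3 (log2 fold change -0.53 ± 0.13, SE, adjusted p = 0.0231). In both, the 4-OHT libraries were below all controls. Their level is low, and both calls were lost without control replicate 2 (adjusted p = 0.0712 and 0.0618) and without 4-OHT replicate 2 (0.113 and 0.118). MCM10 was also not called without control replicate 3 or 4-OHT replicate 3 (adjusted p = 0.052 and 0.108) or after thinning (adjusted p = 0.069), and GINS2 without 4-OHT replicate 1 (adjusted p = 0.0672). CDC45 had a log2 fold change of -0.40 ± 0.12 (SE, adjusted p = 0.0711, or 0.0456 with a replicate block), GINS4 one of -0.31 ± 0.092 (SE, adjusted p = 0.061) and GINS1 one of -0.33 ± 0.11 (SE, adjusted p = 0.099), each with groups that did not overlap. The kinase pair CDC7 and DBF4 had values of -0.35 ± 0.16 and -0.22 ± 0.091 (SE, adjusted p = 0.272 and 0.211). GINS3, the least abundant GINS gene, gave no usable direction at -0.044 ± 0.21 (SE), with a 95% interval from -0.48 to 0.40.

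Of the 9 polymerase and primase genes, 3 fell, and the calls were in polymerases epsilon and delta. POLE2 (chr14:49643555-49688422), the second subunit of the leading strand polymerase epsilon, was at 3.51, 3.19 and 2.60 CPM in control replicates 1 to 3 and at 1.96, 1.48 and 1.90 CPM in 4-OHT replicates 1 to 3. It was the member with the largest change, 1.74-fold lower, and the groups were apart (log2 fold change -0.80 ± 0.19, SE, adjusted p = 0.0188). POLE (chr12:132623753-132687365), the catalytic subunit of polymerase epsilon, was at 19.1, 19.99 and 20.1 CPM in control replicates 1 to 3 and at 16.1, 15.1 and 15.6 CPM in 4-OHT replicates 1 to 3 (log2 fold change -0.34 ± 0.067, SE, adjusted p = 0.00594). The spread within each group was small against the difference. POLD2 (chr7:44114681-44124358), an accessory subunit of the lagging strand polymerase delta, was at 59.6, 69.04 and 62.97 CPM in control replicates 1 to 3 and at 52.9, 51.6 and 55.2 CPM in 4-OHT replicates 1 to 3 (log2 fold change -0.26 ± 0.051, SE, adjusted p = 0.00544). POLE and POLD2 were called in all 15 alternatives, while POLE2, with only 53.5 counts per library on average, was not called without control replicate 1 (adjusted p = 0.0889) or 4-OHT replicate 2 (adjusted p = 0.0984), or after all libraries were thinned to the smallest total (adjusted p = 0.0644).

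The other polymerase genes were not called. POLA1, the catalytic subunit of polymerase alpha, was near the threshold at -0.32 ± 0.090 (log2 fold change and SE, adjusted p = 0.0521) and was called in 7 of 15 alternatives. POLD1, the catalytic subunit of polymerase delta, was at -0.23 ± 0.091 (SE, adjusted p = 0.185). POLD3, PRIM1 and PRIM2 had log2 fold changes above 0, of 0.026 ± 0.080, 0.029 ± 0.22 and 0.051 ± 0.066 (SE). For PRIM2, the large primase subunit, the 95% interval was -0.090 to 0.19, whereas for PRIM1, the small catalytic subunit with a control level of 1.89 CPM, it was -0.45 to 0.50 and left both directions possible. POLA2 was as imprecise, at -0.11 ± 0.19 (SE).

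At the clamp and its loader, 3 of 8 genes fell. LIG1 (chr19:48115445-48170603), the ligase that seals Okazaki fragments, was at 13.3, 13.1 and 13.4 CPM in control replicates 1 to 3 and at 10.2, 9.87 and 10.1 CPM in 4-OHT replicates 1 to 3. Libraries of a group hardly differed and the groups were far apart, and the gene fell in all 15 alternatives (log2 fold change -0.40 ± 0.077, SE, adjusted p = 0.00481). FEN1 (chr11:61792637-61797244), the nuclease that trims the fragments before ligation, was at 19.4, 22.96 and 19.2 CPM in control replicates 1 to 3 and at 16.1, 16.4 and 16.6 CPM in 4-OHT replicates 1 to 3. Control replicate 2 was the highest, and all 4-OHT libraries were below the controls (log2 fold change -0.32 ± 0.077, SE, adjusted p = 0.0205). RFC2 (chr7:74231499-74254458), a subunit of the clamp loader, was at 14.8, 14.2 and 13.5 CPM in control replicates 1 to 3 and at 12.1, 11.3 and 11.8 CPM in 4-OHT replicates 1 to 3 (log2 fold change -0.27 ± 0.077, SE, adjusted p = 0.0481). RFC2 was just under the threshold and was called in 4 of 15 alternatives (adjusted p = 0.0808 with a replicate block). DESeq2 gave an adjusted p of 0.114 for RFC2, and leaving out any of the 6 libraries ended its call (adjusted p = 0.0628 to 0.167). FEN1 was not called without control replicate 2 (adjusted p = 0.0501) or without any one of 4-OHT replicates 1, 2 and 3 (adjusted p = 0.0767, 0.0789 and 0.0561).

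RFC3 was just above the threshold, at -0.40 ± 0.11 (log2 fold change and SE, adjusted p = 0.0504), and RFC4 was at -0.26 ± 0.082 (SE, adjusted p = 0.0798). RFC1, the large subunit of the loader, was at 47.7, 47.8 and 47.8 CPM in control replicates 1 to 3 and at 47.7, 48.4 and 47.03 CPM in 4-OHT replicates 1 to 3. The groups overlapped almost completely, and the log2 fold change was -0.0015 with a 95% interval from -0.087 to 0.084. RFC5 was at -0.11 ± 0.089 (SE, adjusted p = 0.61). PCNA, the sliding clamp itself and the member with the highest level per length, was at 70.5, 69.6 and 66.5 CPM in control replicates 1 to 3 and at 68.3, 59.8 and 63.5 CPM in 4-OHT replicates 1 to 3. Its groups overlapped, and its log2 fold change of -0.11 ± 0.048 (SE, adjusted p = 0.242) was not called.

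None of the 3 genes of replication protein A (RPA), the complex that coats single-stranded DNA in replication and repair, was called in edgeR or in any of the 15 alternatives, DESeq2 and limma-voom among them, and none had an unadjusted p under 0.05 in edgeR. RPA1, the largest subunit, was at 60.6, 64.00 and 63.4 CPM in control replicates 1 to 3 and at 60.3, 55.2 and 62.1 CPM in 4-OHT replicates 1 to 3. The groups overlapped, with a log2 fold change of -0.081 ± 0.047 (SE, adjusted p = 0.419) and a 95% interval from -0.18 to 0.019. RPA2 and RPA3 were at -0.061 ± 0.062 and -0.17 ± 0.11 (SE, adjusted p = 0.695 and 0.464).

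Nucleotide synthesis had calls in 4 of 5 genes and a median log2 fold change of -0.37. RRM2 (chr2:10120698-10131419), the regulated small subunit of ribonucleotide reductase, was at 29.99, 31.2 and 28.6 CPM in control replicates 1 to 3 and at 21.01, 19.4 and 21.4 CPM in 4-OHT replicates 1 to 3. The gap between the groups was wider than the range of either, and RRM2 had the smallest p of the 52 genes (log2 fold change -0.54 ± 0.061, SE, adjusted p = 7.66e-05). TK1 (chr17:78174075-78187233), the cytosolic thymidine kinase of the salvage pathway, was at 41.1, 46.03 and 44.1 CPM in control replicates 1 to 3 and at 34.4, 29.8 and 32.8 CPM in 4-OHT replicates 1 to 3. All 4-OHT libraries were below all controls (log2 fold change -0.44 ± 0.059, SE, adjusted p = 0.000325). TYMS (chr18:657604-673578), thymidylate synthase, was at 17.01, 19.4 and 17.03 CPM in control replicates 1 to 3 and at 13.5, 14.5 and 13.3 CPM in 4-OHT replicates 1 to 3, again without overlap (log2 fold change -0.37 ± 0.077, SE, adjusted p = 0.00887). RRM2, TK1 and TYMS were called in all 15 alternatives.

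DUT (chr15:48331011-48343373), the dUTPase that keeps uracil out of DNA, was at 43.9, 49.4 and 44.1 CPM in control replicates 1 to 3 and at 36.3, 40.9 and 37.5 CPM in 4-OHT replicates 1 to 3 (log2 fold change -0.26 ± 0.057, SE, adjusted p = 0.0130). Its highest 4-OHT library was below its lowest control, and the call was lost without 4-OHT replicate 1 or 3 (adjusted p = 0.0733 and 0.0633). RRM1, the large subunit that pairs with RRM2, was at 59.1, 56.9 and 56.3 CPM in control replicates 1 to 3 and at 54.9, 47.6 and 53.1 CPM in 4-OHT replicates 1 to 3. The groups did not overlap, yet RRM1 was not called (log2 fold change -0.15 ± 0.051, SE, adjusted p = 0.113). Per length, the ratio of RRM2 to RRM1 was 0.398, 0.430 and 0.399 in control replicates 1 to 3 and 0.301, 0.320 and 0.316 in 4-OHT replicates 1 to 3. The ratio was thus lower in every library of 4-OHT ATII CM, a description that was not tested. Of 4 other ratios per length, POLE2 to POLE also separated the groups, at 0.727 to 1.04 against 0.553 to 0.685, while the groups overlapped for GMNN to CDT1 (1.67 to 2.67 against 2.34 to 2.52), ORC1 to ORC2 (0.263 to 0.443 against 0.239 to 0.292) and MCM2 to MCM7 (0.143 to 0.185 against 0.146 to 0.156).

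**Figure D3:**
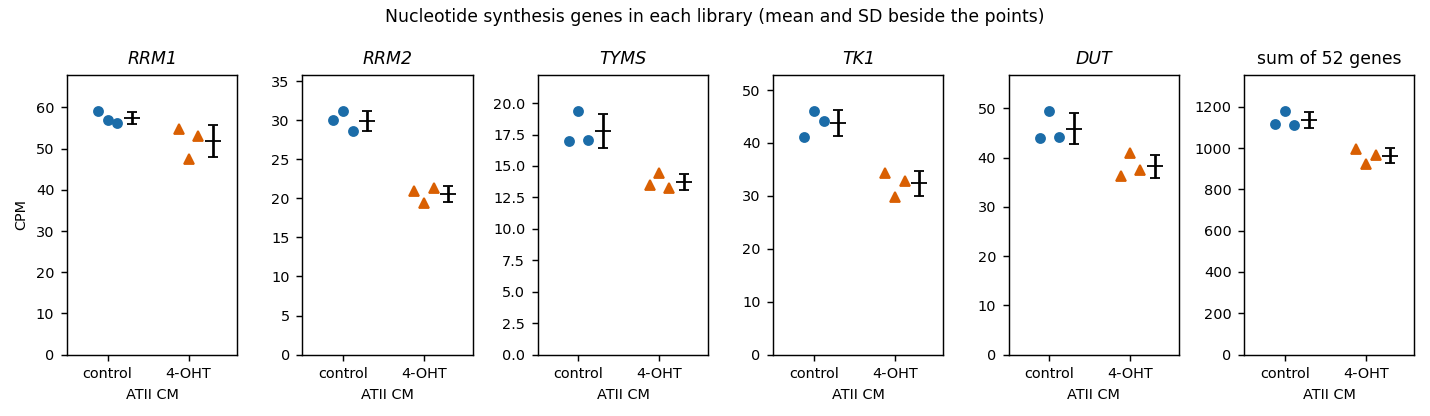
CPM of the 5 nucleotide synthesis genes and of the sum over all 52 genes in each library, with control ATII CM as circles, 4-OHT ATII CM as triangles, and the mean and SD (n = 3) beside the points. RRM2 went from 29.9 to 20.6 CPM on average and TK1 from 43.8 to 32.3 CPM, and the RRM1 groups lie close together.

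Of the 5 genes for fork protection and the replication checkpoint, 4 fell. DTL (chr1:212035553-212107400), a substrate receptor of the CUL4 ubiquitin ligase that removes CDT1 in S phase, was at 9.42, 9.91 and 9.13 CPM in control replicates 1 to 3 and at 6.67, 6.34 and 5.37 CPM in 4-OHT replicates 1 to 3. It was the member with the second largest change, lower in every 4-OHT library than in any control and called in all 15 alternatives (log2 fold change -0.63 ± 0.11, SE, adjusted p = 0.00178). WDHD1 (chr14:54938950-55027105), which links the helicase to polymerase alpha, was at 11.1, 12.5 and 14.3 CPM in control replicates 1 to 3 and at 10.1, 9.06 and 8.48 CPM in 4-OHT replicates 1 to 3 (log2 fold change -0.46 ± 0.10, SE, adjusted p = 0.0132). CLSPN (chr1:35720218-35769967), claspin, the mediator of CHK1 activation, was at 9.70, 9.97 and 8.47 CPM in control replicates 1 to 3 and at 7.63, 7.10 and 6.70 CPM in 4-OHT replicates 1 to 3 (log2 fold change -0.39 ± 0.10, SE, adjusted p = 0.0316). In both genes the groups were separate.

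TIMELESS (chr12:56416373-56449403), the fork protection partner of TIPIN, was at 24.9, 27.4 and 25.6 CPM in control replicates 1 to 3 and at 23.4, 20.3 and 21.00 CPM in 4-OHT replicates 1 to 3 (log2 fold change -0.27 ± 0.067, SE, adjusted p = 0.0267). The highest 4-OHT library was below the lowest control. Without 4-OHT replicate 2 the adjusted p was 0.0645 for WDHD1, 0.102 for CLSPN and 0.136 for TIMELESS, and without 4-OHT replicate 3 it was 0.0704, 0.143 and 0.116. Leaving out control replicate 3 gave 0.0879 for WDHD1 and 0.0693 for TIMELESS, leaving out control replicate 2 gave 0.0672 for CLSPN and 0.0526 for TIMELESS, and leaving out control replicate 1 gave 0.115 for CLSPN. DESeq2 did not call CLSPN either (adjusted p = 0.0566). TIPIN was not called (log2 fold change -0.22 ± 0.12, SE, adjusted p = 0.37).

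The 52 genes differed widely in abundance, and levels were compared between genes only as CPM per kilobase of exons. The length used is that of all annotated exons of a gene merged, 3650 bases for MCM3 and 7338 for MCM5. It can exceed the length of the transcripts present, so the order of genes by this level depends on the annotation. In control ATII CM, PCNA was highest at 46.8 ± 1.41 CPM per kilobase (SD, n = 3), followed by TK1 at 23.5 ± 1.34, MCM7 at 19.6 ± 1.17 and POLD2 at 17.3 ± 1.30. The order of PCNA over TK1 was beyond their spread, whereas MCM7 and POLD2 differed by less than the sum of their SDs. Although the 6 MCM proteins act in 1 ring, the levels of their genes per merged exon length were not equal. They were 19.6 for MCM7, 10.7 for MCM3, 9.10 for MCM6, 6.56 for MCM4, 4.40 for MCM5 and 3.23 CPM per kilobase for MCM2. The order was the same in 4-OHT ATII CM, at 15.5, 9.21, 7.62, 5.46, 3.35 and 2.35 CPM per kilobase. At the low end were GINS3 (0.489), POLA2 (0.531) and PRIM1 (0.775 CPM per kilobase in control ATII CM). Low genes were measured less precisely: 6 members had under 5 CPM in control ATII CM, and POLE2 was the only one of them called.

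**Figure D4:**
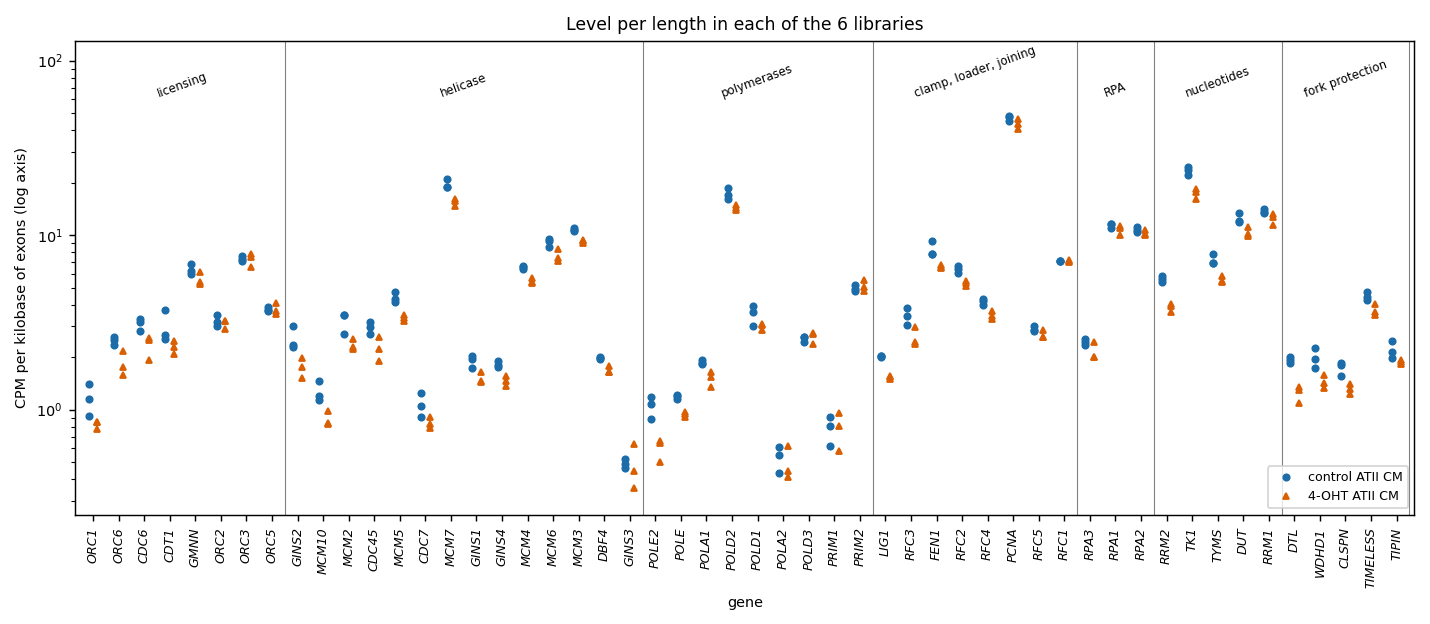
Level of each gene in each library as CPM per kilobase of exons on a log axis, with control ATII CM as blue circles and 4-OHT ATII CM as orange triangles, ordered by role and by change. PCNA stands above all other members at 46.8 in control ATII CM, and MCM7 above the other MCM genes at 19.6.

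Genes of the same pathway that are not among the 52 were counted in the same fit. Of 22 further replication factors, 4 fell and 0 rose, with a median log2 fold change of -0.07. These were the PCNA-associated factor PCLAF (log2 fold change -0.61 ± 0.13, SE, adjusted p = 0.00785), the alternative clamp loader subunit CHTF18 (log2 fold change -0.45 ± 0.10, SE, adjusted p = 0.0105), the helicase RECQL4 (log2 fold change -0.44 ± 0.10, SE, adjusted p = 0.0168) and, outside the rule for named genes and picked after its values were seen, the origin firing factor TICRR (log2 fold change -0.63 ± 0.16, SE, adjusted p = 0.0329). The calls of CHTF18, RECQL4 and TICRR depended on single libraries. The count of 4 fell to 1, PCLAF, without control replicate 3 or without 4-OHT replicate 2, and to 2 without 4-OHT replicate 1. Over the 15 alternatives their log2 fold changes were -0.53 to -0.37 for CHTF18, -0.55 to -0.38 for RECQL4 and -0.79 to -0.49 for TICRR. Of 24 further genes of nucleotide metabolism, 6 fell and 1 rose, with a median of -0.08. Those that fell included the purine synthesis enzyme PAICS (log2 fold change -0.21 ± 0.040, SE, adjusted p = 0.00412) and thymidylate kinase DTYMK (log2 fold change -0.26 ± 0.055, SE, adjusted p = 0.00884). SAMHD1, a hydrolase of deoxynucleotides picked after its values were seen, was the one that rose (log2 fold change 0.18 ± 0.045, SE, adjusted p = 0.0223). SAMHD1 was not called without control replicate 3, 4-OHT replicate 2 or 4-OHT replicate 3, nor DTYMK without 4-OHT replicate 1. The count of 6 that fell was 3 without 4-OHT replicate 1 and 3 without 4-OHT replicate 2.

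**Figure D5:**
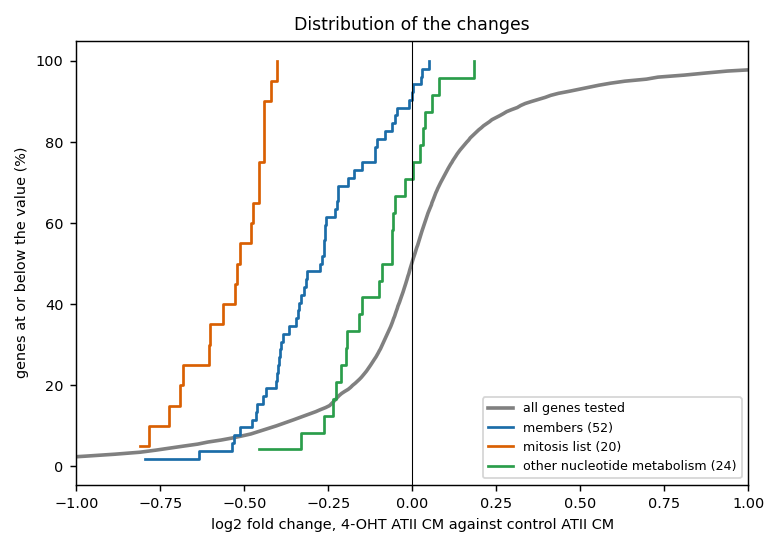
Share of genes at or below each log2 fold change for the 52 members, 20 mitosis genes, 24 further nucleotide metabolism genes and all 19072 genes tested. The curve of the members crosses its middle at -0.27, that of the mitosis genes at -0.52 and that of all genes at about 0.

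Of 20 mitosis genes, 19 fell, with a median log2 fold change of -0.52. The 3 with the smallest p were topoisomerase TOP2A (log2 fold change -0.56 ± 0.049, SE, adjusted p = 8.81e-06), the proliferation antigen MKI67 (log2 fold change -0.78 ± 0.070, SE, adjusted p = 1.01e-05) and the kinetochore protein CENPF (log2 fold change -0.81 ± 0.075, SE, adjusted p = 1.56e-05). The promoters of 17 mitosis genes held an E2F motif in 11.8%, CCAAT in 88.2% and the CHR motif in 76.5%, values that were not tested against those of the members. Among 23 genes that control the G1/S step, 5 fell and 2 rose, with a median of -0.14. Those that fell with the smallest p were the D-type cyclin CCND1 (log2 fold change -0.15 ± 0.027, SE, adjusted p = 0.00332), the E-type cyclin CCNE2 (log2 fold change -0.84 ± 0.17, SE, adjusted p = 0.00836) and the transcription factor E2F1 (log2 fold change -0.48 ± 0.11, SE, adjusted p = 0.0139). Picked after their values were seen, CDK2 and E2F2 also fell, while the CDK inhibitor CDKN1B and the pocket protein RBL2 rose. Without 4-OHT replicate 2 only CCND1 was called of these 7, and the count that fell was 2 without 4-OHT replicate 3 and 3 without control replicate 3 or after thinning. DESeq2 called 4 lower and neither CDKN1B nor RBL2 higher, and RBL2 was not called with a replicate block (adjusted p = 0.0507). CDK2, E2F2, CDKN1B and RBL2 were called in 10, 7, 9 and 5 of the 15 alternatives.

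Some members share sequence with other genes, which makes their counts less certain, because the strand setting and the treatment of reads that map to several places are not given in the sources used here. Exons of 23 members overlap those of another gene. The largest such overlap is in TYMS, where 39.2% of the exonic bases also lie in exons of ENOSF1 on the opposite strand, a gene with 361.5 counts per library on average against 350.2 for TYMS. POLA2 shares 35.1% of its exonic bases with a same-strand gene that had 19.2 counts per library on average, and 20.2% of RRM2 lies in a same-strand gene with 0.7 counts. Near-identical transcripts of other genes exist for POLA2, PRIM1, PRIM2 and FEN1, the last from the pseudogene FEN1P1. Of these 4, only FEN1 was called.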

How the data were processed

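MRC5 libraries were grouped by the sample labels. Per the labels and the methods of the study, the authors trimmed paired-end reads with Trim Galore, aligned them by HISAT2 2.1.0 to GRCh38, and deposited raw featureCounts 1.6.5 counts per gene without normalization, beside exon lengths in bases. Annotation release and strand setting are not given in the sources used here. Totals were 17691849 to 26389449 counts per library.

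Counts of 45 identifiers listed more than once were added, and no column was left unassigned. A sum of at least 10 counts was required (19072 genes). TMM and the quasi-likelihood test of edgeR 4.0.16 (R 4.3.3) were applied with only group in the model, with Benjamini-Hochberg adjustment at 0.05, after a check on simulated counts. Intervals are at 95%, and the SE is the log2 fold change divided by the root of F. DESeq2 1.42.0, limma-voom 3.58.1, other scalings and filters, a block, thinning and leaving out each library made 15 alternatives. Near-identical transcripts (at least 50% cover and 95% identity) were found with minimap2 2.31. Promoters came from RefSeq and gene names from GENCODE.

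Members and lists were chosen with earlier results of these data known. All 52 members are named, those called with every library's value, and at most the 3 genes with the smallest p in each other list unless stated. Results for some items that this rule would name are not reported here.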

Additional observations from a re-analysis of the deposited data

How the results depend on the processing

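The members called lower numbered 22 with DESeq2, 25 with limma-voom, 25 with RLE size factors, 23 with upper-quartile factors, 26 with library totals only, 28 with no filter on low counts, 27 with at least 1 CPM in 3 libraries and 21 after thinning, and 0 were called higher in any of these. With a replicate block 24 were called. In these settings 2.45% to 3.04% of all genes tested were called lower, except with at least 1 CPM in 3 libraries (4.535% of 13098 genes). The labels do not say whether the replicate numbers pair the libraries. Deviations of same-numbered libraries from their group means correlated at -0.014, -0.10 and -0.093, and no control correlated best with its own number. With means of 3 libraries per group, these values cannot show whether a weak pairing is present. Under the block RFC2 lost its call (adjusted p = 0.0808) and CDC45 gained one (adjusted p = 0.0456), and no other member's call changed. Leaving out 1 library at a time gave 11 to 22 called members, when 1.32% to 4.46% of the genes tested were called lower. The fewest members (11) were called without 4-OHT replicate 2. Over all genes the calls then fell from 527 to 244 lower, but without control replicate 2 they rose to 834 while 19 members were called, and the cause was not tested. Of the 24 called members, 10 were called in all 15 alternatives, 14 were lost in some, and 0 changed sign. The median log2 fold change of the members lay between -0.31 and -0.24 in all alternatives.

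Sign changes occurred in 9 members, none called. ORC3 was at 0.00034 with no filter and at 0.029 after thinning. ORC5 was at -0.0045 with limma-voom, -0.00039 with RLE size factors, -0.0051 with library totals and -0.024 after thinning. PRIM1 was at -0.039 after thinning and RFC1 at 0.0075 with no filter. Leaving out 1 library gave -0.11 to 0.0090 for ORC2, -0.071 to 0.064 for ORC3, -0.053 to 0.045 for ORC5, -0.28 to 0.13 for GINS3, -0.30 to 0.011 for POLA2, -0.14 to 0.20 for PRIM1, -0.013 to 0.098 for PRIM2, -0.0079 to 0.089 for POLD3 and -0.013 to 0.0064 for RFC1. After thinning to the smallest library ORC6, MCM10, POLE2 and RFC2 were not called, at -0.43, -0.48, -0.63 and -0.29, and POLA1 was, at -0.40 (adjusted p = 0.0363).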
